A study of Mus musculus with 18 samples.

Results

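9 genes of the MYC, MAX and MXD network were followed in the H3K79me2 peak lists of mouse CD4+ T cells: Myc, Mycn, Mycl, Max, Mxd1, Mxd4, Mxi1, Mnt and Mlx. They were named by symbol, with earlier results of these data known, and are 9 of the 21631 protein-coding genes on chromosomes 1 to 19 and X of the annotation. For each gene and library, the percent of the annotated gene body covered by merged broad peaks was measured, and the distance that the covering peak ran past either end of the gene (its reach). H3K79me2, dimethylation of lysine 79 of histone H3, was mapped by ChIP-seq in 3 libraries of Th2 cells, 3 of Th1 cells and 3 of naive cells. Another 9 input libraries entered no comparison. For Th2 cells, CD4+ T cells were enriched from 4C13R mice, which report IL-4 with AmCyan and IL-13 with dsRed. These were kept for 4 days on plates coated with anti-CD3 and anti-CD28, in IL-2, IL-4 and anti-IFNg, and sorted for either reporter. Th1 cells came from IFNg-YFP reporter mice after 4 days on the same coated antibodies in IL-12, IL-2 and anti-IL-4, and were sorted for YFP. Naive cells were sorted uncultured from spleens of WT mice as CD44- CD62L+ cells. The labels give the genotype of all 3 groups as WT. Activation, culture and mouse strain change together between either cultured group and naive cells and cannot be told apart. Between Th2 and Th1 cells, mouse strain, culture cytokines and the sorted reporter change together and cannot be told apart either. Nothing in the labels ties the libraries of a group to different animals; the p-values then describe the scatter of libraries, which could be technical.

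The Th2 lists held 45894 to 51854 peaks over 240.3 ± 8.93 Mb, the Th1 lists 41504 to 46085 over 226 ± 12.2 Mb and the naive lists 38026 to 40455 over 279.98 ± 4.68 Mb (SD, n = 3 each). Read depth is unknown. The naive lists thus covered the most sequence. Over the 11600 genes without the same value in all 9 lists, the median difference was -5.50 points in Th2 and -5.54 points in Th1 against naive cells. Over all 21631 genes the median difference was 0 in both comparisons. The 5 T cell marker genes (Cd3e, Cd3d, Cd4, Thy1, Lat) had group means of 81.9 to 100% covered in Th2, 83.2 to 100% in Th1 and 83.5 to 100% in naive cells. The 5 myeloid genes had means of 0% in Th2, 0 to 1.42% in Th1 and 0 to 9.32% in naive cells. Of 6 B cell genes, 5 were at 0 in Th2, 5 in Th1 and 4 in naive cells, and the highest mean was 100% in each group. Of 4 NK cell genes, 2 were at 0 in Th2, 1 in Th1 and 2 in naive cells, with highest means of 93.0, 99.8 and 100%. Cd8a and Cd8b1 had means of 7.28 and 23.3% in Th2 and of 0 and 9.01% in Th1 cells, against 100% for both in naive cells. The Cd8a and Cd8b1 values move with the difference between cultured and naive cells. The NK cell gene Klrk1 had means of 2.597% in Th2, 99.8% in Th1 and 26.9% in naive cells. Tyrobp, another NK cell gene, had means of 93.0% in Th2, 44.97% in Th1 and 100% in naive cells. Marker values thus also differ between Th2 and Th1 cells. The part of the markers in the results of any comparison was not tested.

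H3K79me2 is written by DOT1L on nucleosomes of transcribed genes, mostly from the promoter into the first part of the gene. MYC is a basic helix-loop-helix leucine zipper factor that binds DNA as a dimer with MAX, at E boxes such as CACGTG, and favours genes for growth, nucleotide synthesis and glycolysis. MXD proteins, MXI1 and MNT also pair with MAX, bind the same sites and bring the SIN3 corepressor. MLX is another partner for some of them and for MLXIP and MLXIPL. In T cells, antigen receptor signals induce MYC, which drives the growth and metabolic change of activation, while MXD proteins are best known from cells that leave the cycle.

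Promoter windows, from 250 bases before to 50 bases after an annotated start (RefSeq, GRCm38.p6, the assembly of mm10), were at hand for 8 of the 9 genes: all but Myc, with 3 windows for Mxi1. The E box CACGTG, which reads the same on both strands, occurred in 2348 of 32619 promoter windows of all genes (7.20%) and in the windows of Max, Mxd4, Mnt and Mlx. These are matches of letters and not binding sites. The windows of Max, Mxd4 and Mnt are shown because their H3K79me2 coverage separated cell types or was absent beside a marked gene body, and that of Mlx because it was covered throughout; the E box is in capitals. The second window of Mxi1 is shown because it was bare in naive cells and covered in both cultured groups.
Max, minus strand, chr12:76962199-76962498: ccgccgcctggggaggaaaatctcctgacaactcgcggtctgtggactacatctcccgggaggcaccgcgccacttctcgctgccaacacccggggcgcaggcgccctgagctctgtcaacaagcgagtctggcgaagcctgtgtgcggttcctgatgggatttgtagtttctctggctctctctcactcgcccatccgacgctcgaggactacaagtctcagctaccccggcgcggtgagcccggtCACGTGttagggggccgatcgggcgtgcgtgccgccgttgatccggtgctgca
Mxd4, minus strand, chr5:34187661-34187960: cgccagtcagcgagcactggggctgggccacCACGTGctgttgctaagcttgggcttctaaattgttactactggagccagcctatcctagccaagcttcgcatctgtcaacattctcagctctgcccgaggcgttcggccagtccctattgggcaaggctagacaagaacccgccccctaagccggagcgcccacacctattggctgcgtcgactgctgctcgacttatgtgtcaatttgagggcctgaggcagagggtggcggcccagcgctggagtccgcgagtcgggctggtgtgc
Mnt, plus strand, chr11:74830674-74830973: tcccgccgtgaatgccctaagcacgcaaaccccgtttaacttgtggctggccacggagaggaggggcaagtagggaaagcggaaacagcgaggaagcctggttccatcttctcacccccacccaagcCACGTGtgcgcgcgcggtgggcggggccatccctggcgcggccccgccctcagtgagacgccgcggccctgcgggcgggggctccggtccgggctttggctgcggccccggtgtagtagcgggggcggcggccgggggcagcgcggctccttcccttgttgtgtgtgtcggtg
Mlx, plus strand, chr11:101087040-101087339: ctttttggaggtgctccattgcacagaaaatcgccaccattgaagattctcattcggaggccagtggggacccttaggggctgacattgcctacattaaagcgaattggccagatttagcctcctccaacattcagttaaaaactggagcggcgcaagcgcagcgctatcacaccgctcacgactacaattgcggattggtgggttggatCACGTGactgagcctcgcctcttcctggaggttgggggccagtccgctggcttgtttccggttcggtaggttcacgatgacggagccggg
Mxi1 second promoter, plus strand, chr19:53329163-53329462: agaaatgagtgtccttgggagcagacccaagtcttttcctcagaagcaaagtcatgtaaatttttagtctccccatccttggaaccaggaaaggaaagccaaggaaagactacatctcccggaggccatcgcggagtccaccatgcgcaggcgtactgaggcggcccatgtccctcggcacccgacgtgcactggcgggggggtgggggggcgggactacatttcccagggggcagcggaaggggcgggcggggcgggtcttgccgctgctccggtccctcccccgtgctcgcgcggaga

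In the Max window the E box starts at position -3, counted from 0 at the annotated start, in Mxd4 at -219, in Mnt at -123 and in Mlx at -40. The Max window was 0, 0 and 7.33% covered in the Th2 lists and 0, 19.3 and 18.3% in the Th1 lists, against 100% in every naive list. The Mxd4 window was at 0% in every Th2 and Th1 list and at 100% in every naive list. The second Mxi1 window ran the other way, at 100% in every Th2 and Th1 list and at 0% in every naive list. Its last window, which overlaps the second, was at 100% in every Th2 and Th1 list, against 15.3, 0 and 0% in the naive lists. Among all promoter windows, 726 of 32619 (2.23%) were whole in every naive list and under 25% in every Th2 and Th1 list, as those of Max and Mxd4 were. The reverse was shown by 207 (0.635%). Of all windows, 21298 (65.3%) were under 25% in all lists and could show neither pattern. The Mnt window was 0 to 7.67% covered and the Mlx window 100% covered over all 9 lists, and the windows of Mycn and Mycl were at 0% in all 9. The Mxd1 window was whole in all lists except the first naive one, where it was 33.3% covered. These windows were chosen for display after their values were seen, and their differences were not tested.

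**Figure D1:**
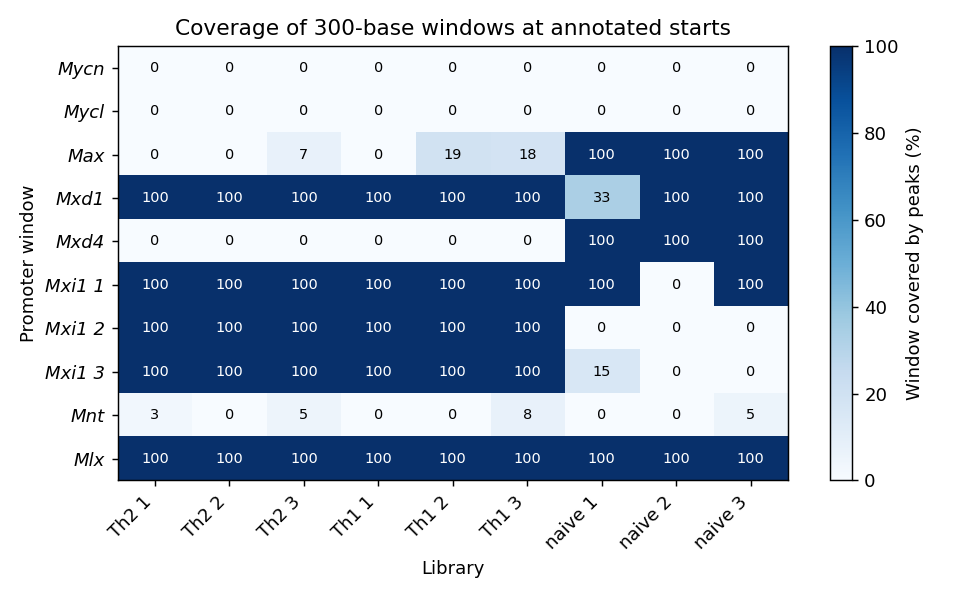
Percent of each 300-base promoter window covered by H3K79me2 peaks in the 9 libraries, Th2 left, Th1 in the middle and naive right; the colour runs from 0 to 100% and Mxi1 has 3 windows. Max and Mxd4 are at 100% in the naive columns alone, and the last 2 Mxi1 windows are at 100% in the Th2 and Th1 columns and at 15.3% or less in the naive columns.

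A gene body was called different at a limma Benjamini-Hochberg adjusted p under 0.05 over all tested genes, with a minimum difference of 25 percentage points. Genes with the same value in all 9 lists, which include Myc at 100% and Mycl at 0%, cannot be tested, which left 11600 genes and 7 of the 9 network genes. In Th2 against naive cells, 2 of the 7 were called, Mxd1 and Mxd4, both lower, where 19.6% of all tested genes were called and 15.4% were called lower. In Th1 against naive cells Mxd4 was called lower and Mycn higher, 2 of 7, where 20.7% of all tested genes were called. In Th2 against Th1 cells 1 of 7 was called, Mxd1, lower in Th2, where 3.64% of all tested genes were called (2.08% higher, 1.56% lower). For so few genes, these counts lie near the background. The median difference over the 7 was -2.37 points in Th2 against naive, -1.59 points in Th1 against naive and -1.64 points in Th2 against Th1 cells, beside -5.50, -5.54 and 0.0181 points over all tested genes. With libraries centred on their mean coverage, 39.8% of the genes called in Th2 against naive cells and 38.5% of those called in Th1 against naive cells were higher, against 21.7 and 21.1% without centring.

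**Figure D2:**
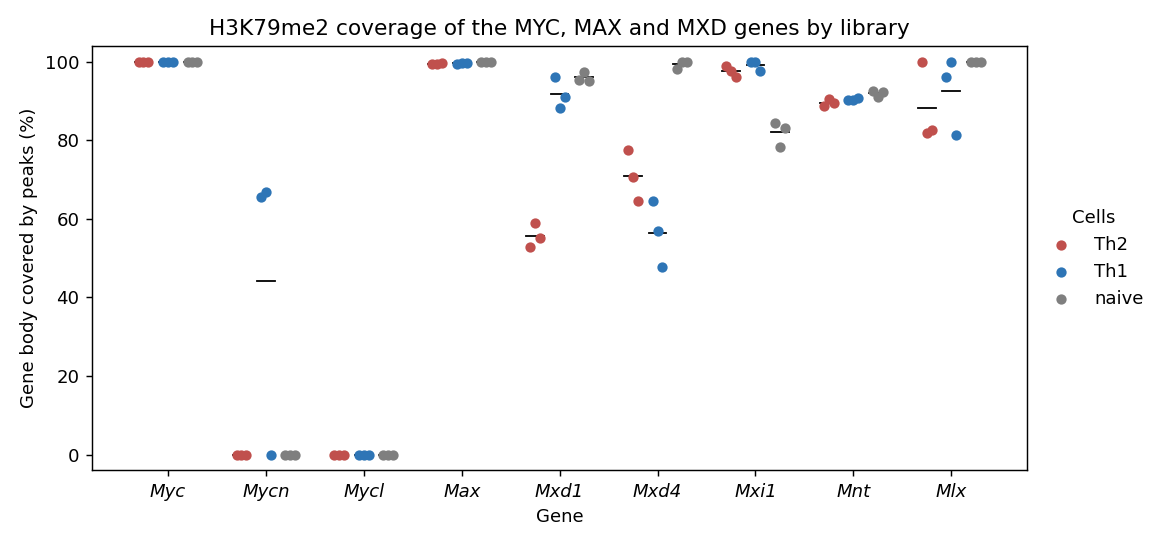
Percent of each gene body covered by merged H3K79me2 peaks; each point is a library, coloured by cell type with Th2 left, Th1 in the middle and naive right, and each bar is the mean of 3 libraries. Mxd1 is low in Th2 alone, Mxd4 is low in Th2 and Th1, Mxi1 is lowest in naive cells, Mycn is covered in 2 Th1 libraries, and Myc (100%) and Mycl (0%) do not vary.

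The activating members come first. Myc (chr15:61985341-61990361, 5.02 kb) was covered from end to end in all 9 lists, always by a single peak. That peak's fold enrichment, the authors' value within its own list, was 7.85, 7.46 and 6.27 in Th2, 8.28, 7.92 and 6.67 in Th1, and 7.23, 6.46 and 6.02 in naive cells. It ranked in the top 1.00 to 4.26% of its list by fold. Percent covered is therefore saturated at Myc, and what can vary is how far the domain runs outside the gene.

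On the lower-coordinate side the Myc domain reached 5.29, 4.66 and 5.19 kb past the gene in Th2, 4.63, 4.32 and 4.50 kb in Th1, and 1.45, 1.49 and 1.33 kb in naive cells. The Th2 and Th1 domains were longer on this side than every naive one (Th2 against naive 3.63 kb, Th1 against naive 3.07 kb, 2-sided exact permutation p = 0.1 each, the smallest that 3 against 3 libraries can give). The 10 kb on this side, in which the domain and any separate peaks count, were 58.1, 46.6 and 64.3% covered in Th2, 46.3, 46.1 and 45.03% in Th1, and 14.5, 14.9 and 13.3% in naive cells. This flank was called higher in Th2 than in naive cells by 42.1 points (SE 4.27, limma adjusted p = 0.000118) and higher in Th1 than in naive cells by 31.6 points (SE 4.27, adjusted p = 0.000525). Th2 and Th1 cells differed by 10.5 points (SE 4.27, adjusted p = 0.204), which was not called.

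On the higher-coordinate side, toward Pvt1, the Myc peak itself reached 2.82, 5.27 and 10.9 kb in Th2, 5.74, 1.31 and 8.12 kb in Th1, and 1.85, 5.34 and 5.19 kb in naive cells, and the groups overlapped. Gaps split the domain here in some lists, so the covered share of the 10 kb gave a clearer separation. It was 81.5, 81.9 and 100% in Th2, 84.9, 85.3 and 84.8% in Th1, and 44.96, 63.2 and 64.9% in naive cells. This flank was called higher in Th2 (30.1 points, SE 6.44, limma adjusted p = 0.00588) and in Th1 cells (27.3 points, SE 6.44, adjusted p = 0.00899) than in naive cells. Both calls ended without the first naive library, at 23.8 and 21.0 points, and with peaks limited to a -log10 q of at least 5, at 19.1 and 9.3 points (adjusted p = 0.555 and 0.797). The Th2 call also ended without the third Th2 library, at 24.0 points, and the Th1 call with peaks up to 1 kb apart joined (21.2 points) and on the arcsine scale (adjusted p = 0.0568). No protein-coding gene lies within 10 kb of Myc.

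Over all 14 flanks of network genes that could be tested, 2 were called higher and 4 lower in Th2 against naive cells, 2 higher and 2 lower in Th1 against naive cells, and 1 higher in Th2 against Th1 cells. Among all 19016 flanks tested, 4.88% were called higher and 14.8% lower in Th2 against naive cells, 4.26% higher and 16.8% lower in Th1 against naive cells, and 2.62% higher and 1.42% lower, 4.04% in all, in Th2 against Th1 cells. The higher calls against naive cells were the 2 flanks of Myc in both comparisons.

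Myc stands in a gene-poor stretch of chromosome 15: no protein-coding gene lies between A1bg, which ends 1064 kb before it, and Gsdmc, which starts 1786 kb after it, and the long noncoding RNA gene Pvt1, which neighbours Myc in mouse and human, starts 47.6 kb after it. This interval was examined in 10-kb tiles, fitted with limma together with all tiles of the genome, a step added after the data were seen. Peaks covered 554 ± 67.2 kb of the 2855-kb interval in Th2, 422 ± 29.9 kb in Th1 and 242 ± 6.53 kb in naive cells (SD, n = 3 each), although the naive lists were the longest genome-wide. Of 193 tiles tested, 38 were called higher in Th2 than in naive cells, or 19.7%, beside 7.4% of all tiles tested; none was called lower (2 at an unadjusted p under 0.05 in limma), beside 20.3% of all tiles. In Th1 against naive cells 25 were called higher (13%, beside 6.41% of all tiles) and 3 lower (beside 22.6%). Most tiles of the interval had little or no coverage in naive cells, and a tile under 25% there cannot be called lower at the 25-point minimum. The counts called lower against naive cells are limited by this and cannot be read against the shares over all tiles. The shares called higher have limits too, as tiles with the same value in every list were left out. Most tested tiles of the interval had no peak in naive cells and entered through peaks in Th2 or Th1 lists. Pvt1 tiles whole in every list dropped out. Adjoining tiles under the same peak count as separate calls in every comparison. The shares called higher therefore only describe the interval. In Th2 against Th1 cells 12 were called higher (6.22%, beside 5.35%), and none lower (3 at an unadjusted p under 0.05 in limma, beside 2.68% of all tiles called lower).

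Most of the added coverage lay beyond Pvt1. The 1516 kb from the end of Pvt1 to Gsdmc held 229 ± 54.2 kb of peaks in Th2 and 173 ± 26.2 kb in Th1, against 4.08 ± 1.66 kb in naive cells (exact permutation p = 0.1 for Th2 against naive and for Th1 against naive). The longest run of called tiles in Th2 against naive cells was 13 tiles at chr15:62720001-62850000, 730 to 860 kb from Myc. It was 80.9, 73.7 and 88.05% covered in Th2, 75.6, 70.9 and 61.4% in Th1, and 0.854, 0 and 1.17% in naive cells. Inside it, 7 adjoining tiles from 780 to 850 kb were 91.1% covered on average in Th1 cells and 0% covered in every naive list (largest limma adjusted p among the 7, 0.0023). A second place, 430 to 480 kb from Myc, was 54.1, 42.8 and 66.3% covered in Th2, 64.5, 59.7 and 50.3% in Th1, and 3.56, 2.05 and 4.61% in naive cells. The tiles of these places were picked for their calls against naive cells in the same lists, so the values only describe them. Pvt1 itself, 222 kb long, was 98.7 ± 0.252% covered in Th2 and 98.7 ± 0.686% in Th1, against 91.7 ± 0.978% in naive cells. With peaks limited to those with a -log10 q of at least 5, 13 tiles of the interval were called in Th2 against naive, 13 in Th1 against naive and 3 in Th2 against Th1 cells.

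The stretch before Myc set Th2 apart from both other groups. From A1bg to Myc, peaks covered 79.2 ± 8.70 kb in Th2, 9.31 ± 0.836 kb in Th1 and 22.2 ± 2.34 kb in naive cells. A run of 5 tiles at chr15:61400001-61450000 was 64.0, 65.1 and 76.4% covered in Th2, 9.26, 6.74 and 5.88% in Th1, and 29.8, 24.4 and 33.2% in naive cells. All 5 were called higher in Th2 than in Th1 cells (limma adjusted p of at most 0.00176). They were also called higher in Th2 than in naive cells (limma adjusted p of at most 0.0415). The peaks there were weak. The widest had a fold of 2.49 and a -log10 q of 3.58 in the second Th2 library, and of 2.52 and 3.85 in the third. With a -log10 q of at least 5, 3 tiles of the whole interval were called in Th2 against Th1 cells, against 12 without that limit. In Th1 against naive cells, 3 tiles of the stretch before Myc were called lower. Those starting at chr15:61410001 and chr15:61420001 lay in the run of 5, and that starting at chr15:61660001 outside it. Averaged over the run, whose tiles were picked for their Th2 calls, the order was Th2, then naive, then Th1, and no 2 groups overlapped.

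**Figure D3:**
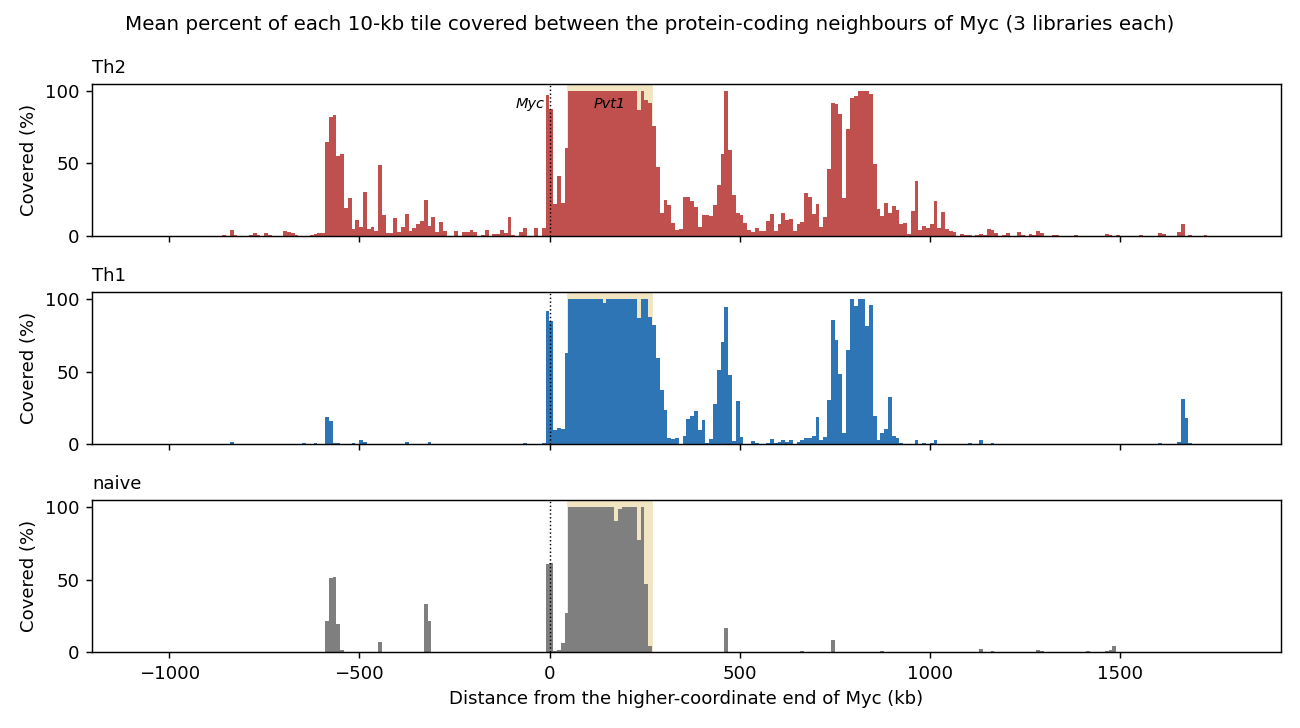
Mean percent of each 10-kb tile covered by H3K79me2 peaks (3 libraries a group) from A1bg to Gsdmc, by distance in kb from the higher-coordinate end of Myc (dotted line); Pvt1 is shaded. Th2 (top) and Th1 (middle) show blocks between 430 and 480 kb and between 730 and 860 kb that naive cells (bottom) lack, and Th2 a block near -590 to -540 kb that is lower in naive and lowest in Th1 cells.

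**Figure D4:**
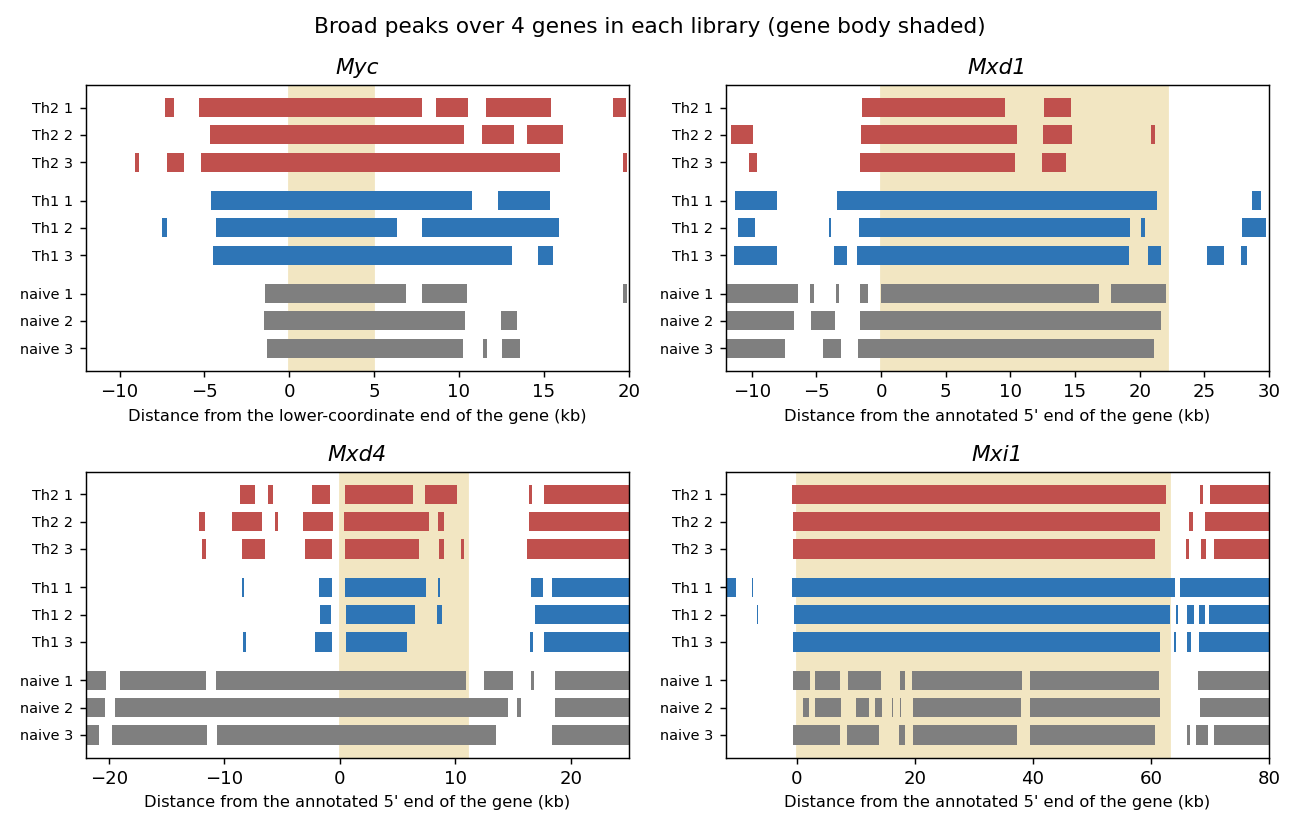
Broad peaks of each library over Myc, Mxd1, Mxd4 and Mxi1 (gene body shaded), with the 3 Th2 libraries on top, Th1 in the middle and naive at the bottom; the x axis is the distance in kb from the lower-coordinate end of Myc or the annotated 5′ end of the others. The Myc domain starts earlier in Th2 and Th1, the Mxd1 domain stops early in Th2, the Mxd4 domain spans the gene and its upstream side in naive cells alone, and Mxi1 is under 1 peak in Th2 and Th1 and several in naive cells.

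Mycn (chr12:12936093-12941836, minus strand), a MYC paralog best known from neural and other embryonic tissue, was 65.4, 66.9 and 0% covered in the Th1 lists and 0% covered in all Th2 and naive lists. The peaks there were weak, with a fold of 2.11 and a -log10 q of 2.11 in the first Th1 library and of 2.06 and 1.74 in the second. The Th1 to naive difference of 44.1 points was called (SE 16.2, limma adjusted p = 0.0475), but it comes from 2 of 3 libraries. Without the third Th1 library it was 66.2 points. It lost its call without any 1 of the other 8 libraries (32.7 to 44.1 points), and with lists matched in covered length (20.7 points, adjusted p = 0.31). Mycl (chr4:122995588-123002490), the remaining paralog, had no peak on it or within 10 kb of it in any list.

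Max (chr12:76937269-76962323, minus strand), the shared partner of all the others except MLX, was 99.3, 99.5 and 99.6% covered in Th2, 99.4, 99.7 and 99.7% in Th1, and 100% in all 3 naive lists. No comparison of the gene body was called. The part missing in Th2 and Th1 was the very start of the gene: domains of the naive lists ran 0.729, 1.48 and 1.40 kb upstream past the start, and the domains on the gene in the Th2 and Th1 lists stopped short of it. In the first Th1 list a separate peak lay upstream, from -1.352 to -0.609 kb relative to this end of the gene body, and covered 7.43% of the upstream 10 kb. With peaks up to 1 kb apart joined, the mean reach upstream in Th1 was 0.451 kb. The missing part of the gene body overlaps the promoter window described above. At the other end the Max domain ran 5.52 to 6.70 kb past the gene in Th2, 5.47 to 7.52 kb in Th1 and 3.46 to 7.06 kb in naive cells, and the groups overlapped. The downstream 10 kb were 58.7 to 68.3% covered in Th2, 54.7 to 75.2% in Th1 and 75.6 to 89.9% in naive cells, differences of -17.7 and -19.1 points (limma adjusted p = 0.0409 and 0.0293) that missed the 25-point minimum.

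Mlx (chr11:101086707-101092207, plus strand) was 100, 81.9 and 82.6% covered in Th2 and 96.2, 100 and 81.2% in Th1, against 100% in all naive lists, and was not called. Its end overlaps Psmc3ip, so peaks there cannot be given to either gene alone. The domain ran upstream over Coasy by 3.94 to 4.01 kb in Th2, 3.99 to 4.03 kb in Th1 and 4.01 to 4.07 kb in naive cells. The downstream 10 kb, which hold Psmc3ip and part of Retreg3, were 31.4, 43.2 and 38.5% covered in Th2, 28.2, 30.7 and 42.9% in Th1, and 72.7, 73.6 and 79.5% in naive cells. This flank was called lower in Th2 than in naive cells by 37.5 points (limma adjusted p = 0.000386) and in Th1 than in naive cells by 41.3 points (adjusted p = 0.000218).

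The repressing members differed among themselves. Mxd1 (chr6:86647044-86669234, minus strand, 22.2 kb), which antagonises MYC in differentiating cells, was 52.8, 58.8 and 55.04% covered in Th2, 96.1, 88.3 and 91.0% in Th1, and 95.3, 97.4 and 95.2% in naive cells. Every Th2 value lay below all others. Coverage fell by 40.4 points in Th2 against naive cells (SE 2.31, limma adjusted p = 4.99e-06) and by 36.2 points in Th2 against Th1 cells (SE 2.31, adjusted p = 5.63e-05), while Th1 minus naive cells gave -4.19 points (SE 2.31, adjusted p = 0.157), not called.

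The loss in Th2 cells lay in the later part of Mxd1. The part of the gene before its midpoint was 86.2, 94.5 and 93.2% covered in Th2, 100% in each Th1 list and 99.8, 100 and 100% in naive cells. After the midpoint the values were 19.4, 23.1 and 16.9% in Th2, 92.1, 76.5 and 82.0% in Th1, and 90.9, 94.8 and 90.4% in naive cells. The longest peak on the gene was 11.04, 12.05 and 11.9 kb in Th2, 24.7, 20.9 and 21.0 kb in Th1, and 16.9, 23.2 and 22.9 kb in naive cells. The strongest peak had a fold of 4.62, 4.48 and 4.72 in Th2, 8.66, 6.86 and 7.16 in Th1, and 4.70, 4.18 and 4.13 in naive cells, and so ranked in the top 8.22 to 8.996% of the Th2 lists, 2.04 to 2.76% of the Th1 lists and 10.3 to 13.7% of the naive lists. The 10 kb upstream, which hold part of Snrnp27, were 14.8, 16.8 and 19.9% covered in Th2, 53.8, 21.3 and 48.1% in Th1, and 46.4, 68.1 and 57.7% in naive cells, and fell by 40.2 points in Th2 against naive cells (SE 8.76, limma adjusted p = 0.00644). Downstream, 6.93, 18.3 and 17.8% of the 10 kb were covered in Th1 and 0% in every Th2 and naive list, a difference of 14.3 points in Th1 against naive cells (adjusted p = 0.00312) that missed the 25-point minimum. Mxd1 overlaps the noncoding gene Gm38850.

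Mxd4 (chr5:34176580-34187710, minus strand, 11.1 kb) was 77.4, 70.7 and 64.6% covered in Th2 and 64.5, 57.0 and 47.8% in Th1, against 98.1, 100 and 100% in naive cells. Both cultured groups lay below every naive value. Coverage fell by 28.5 points in Th2 against naive cells (SE 4.58, limma adjusted p = 0.00108) and by 42.9 points in Th1 against naive cells (SE 4.58, adjusted p = 0.000117). The difference between Th2 and Th1 cells, 14.5 points (SE 4.58, adjusted p = 0.0808), was not called, and 1 Th2 value lay among those of Th1. With libraries centred, the Th2 difference was -20.8 points and no longer called.

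At Mxd4 the loss took in the start of the gene as well as its end. In naive cells a single peak of 21.6, 34.0 and 24.2 kb ran over the whole gene or nearly so and 10.7, 19.5 and 10.6 kb upstream, into Zfyve28 in all 3 lists. In Th2 and Th1 cells the peaks on the gene stopped 0.379 to 0.534 kb inside its start, and the longest was 5.86, 7.36 and 6.401 kb in Th2 and 6.95, 5.94 and 5.32 kb in Th1 cells (exact permutation p = 0.1 for Th2 against naive and for Th1 against naive). The strongest peak had a fold of 3.55, 3.64 and 3.96 in Th2, 3.71, 3.17 and 3.05 in Th1, and 6.62, 5.67 and 5.97 in naive cells. The upstream 10 kb were 31.3, 54.1 and 43.4% covered in Th2, 14.2, 9.57 and 17.7% in Th1, and 100% in every naive list. They fell by 57.1 points in Th2 against naive cells (limma adjusted p = 7.54e-05) and by 86.2 points in Th1 against naive cells (adjusted p = 8.43e-06). They were called higher in Th2 than in Th1 cells by 29.1 points (SE 5.33, adjusted p = 0.0129), a call that ended without the second Th2 library (23.5 points), with peaks limited to a -log10 q of at least 5 (12.7 points) and with matched covered length (21.2 points).

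Mxi1 (chr19:53310128-53373293, plus strand, 63.2 kb) was 99.0, 97.5 and 96.2% covered in Th2 and 100, 100 and 97.6% in Th1, against 84.4, 78.4 and 83.2% in naive cells. Every Th2 and Th1 value lay above all naive ones. The differences, 15.5 points in Th2 (SE 1.70, limma adjusted p = 0.000137) and 17.2 points in Th1 cells (SE 1.70, adjusted p = 7.65e-05), passed the p threshold and not the 25-point minimum. They were called with peaks limited to a -log10 q of at least 5, at 34.5 and 36.1 points, and with matched covered length, at 45.6 and 47.2 points. With libraries centred the Th1 difference alone was called, at 25.4 points (adjusted p = 7.70e-06).

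The form of the Mxi1 domain differed more than its coverage. A single peak of 63.3, 62.3 and 61.4 kb lay on the gene in Th2 and of 64.8, 63.7 and 62.3 kb in Th1 cells, while naive cells had 6, 8 and 5 peaks on it, the longest of 21.7, 22.1 and 21.1 kb. Mxi1 has 3 annotated starts, the second 19.3 kb into the gene. Before the second start the gene was 100% covered in every Th2 and Th1 list and 67.3, 47.2 and 71.7% covered in naive cells. From the second start on it was 98.5, 96.4 and 94.5% covered in Th2, 100, 100 and 96.5% in Th1, and 91.9, 92.1 and 88.3% in naive cells. The gap in naive cells thus included the second start, whose window is printed above, and this division of the gene was chosen after its values were seen. The strongest peak had a fold of 5.99, 6.45 and 6.23 in Th2, 6.81, 5.33 and 5.26 in Th1, and 3.74, 3.81 and 3.72 in naive cells. The downstream 10 kb, which hold part of Smndc1, were 38.5, 46.3 and 40.3% covered in Th2, 91.7, 59.7 and 59.9% in Th1, and 52.4, 48.1 and 50.7% in naive cells, and no comparison of them was called. Mxi1 overlaps the noncoding gene Gm30541.

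Mnt (chr11:74830806-74845725, plus strand, 14.9 kb), a broadly expressed MAX partner, was 88.7, 90.6 and 89.5% covered in Th2, 90.3, 90.1 and 90.7% in Th1, and 92.6, 91.0 and 92.3% in naive cells, and was not called. In every list its first peak began 0.145 to 0.263 kb after the start of the gene body, behind a gap of 1.28 to 1.79 kb. This gap took in most or all of the promoter window, whose annotated start lies inside the gene body. A second gap began 6.85 to 7.32 kb into the gene and ended 8.08 to 8.39 kb into it in all 9 lists. The strongest peak on Mnt had a fold of 7.72, 8.01 and 8.44 in Th2, 10.2, 8.28 and 7.97 in Th1, and 7.24, 7.87 and 7.04 in naive cells. The downstream 10 kb, which hold part of Sgsm2, were 16.9, 17.6 and 30.7% covered in Th2, 54.9, 28.8 and 40.0% in Th1, and 46.7, 50.03 and 47.6% in naive cells. They fell by 26.4 points in Th2 against naive cells (SE 6.65, limma adjusted p = 0.0127), a call that ended without the first (-24.0 points) or the second Th2 library (-24.4 points). Centring the libraries (-20.3 points) or matching the covered length (-21.4 points, adjusted p = 0.22) ended it as well. Upstream, 88.7, 86.03 and 88.4% of the 10 kb were covered in Th2, 77.8, 63.8 and 67.5% in Th1, and 86.2, 84.7 and 85.8% in naive cells. The Th1 values lay below all others, with a difference of -15.9 points against naive cells (limma adjusted p = 0.00524), less than the 25-point minimum.

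Of the 4 further genes of the network, limma called none in either comparison with naive cells. Of all genes tested, 19.6 and 20.7% were called there. In both comparisons Mxd3 was higher and Mga and Mlxip were lower at a limma adjusted p under 0.05, short of the 25-point minimum. Mxd3, which rises in proliferating cells in mouse, was 96.8 ± 2.81% covered in Th2 and 96.9 ± 2.71% in Th1, against 72.8 ± 6.72% in naive cells. Its differences of 24.0 and 24.1 points (limma adjusted p = 0.000513 and 0.000488) fell just short of the 25-point minimum, and it overlaps Prelid1. With libraries centred, and without the third naive library, 1 of the 4 genes was called in each of these comparisons. The same number was called in Th2 against naive cells without the second Th2 library, and in Th1 against naive cells with a -log10 q of at least 5. Mga, a MAX partner in a Polycomb complex, was 57.1 ± 1.31% covered in Th2 and 55.1 ± 1.92% in Th1, against 69.7 ± 0.874% in naive cells. Its differences were -12.6 and -14.6 points (limma adjusted p = 0.000229 and 0.000101). The MLX partner gene Mlxip was 75.0 ± 1.16% covered in Th2 and 74.2 ± 0.80% in Th1, against 80.4 ± 0.845% in naive cells. Its differences were -5.43 and -6.17 points (limma adjusted p = 0.00336 and 0.00171). The other MLX partner gene, Mlxipl, was 0 to 1.14% covered in Th2 lists and 0% in all Th1 and naive lists.

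Part of the corepressor genes that MXD proteins and MNT work through lost coverage in the cultured cells. This list was chosen with earlier results of these data known, so its counts beside all tested genes only describe it. Of 12 genes tested, 4 were called lower and 1 higher in Th2 against naive cells, and 4 lower in Th1 against naive cells. The median differences were -16.6 and -16.4 points, beside -5.50 and -5.54 points over all tested genes. Of all tested genes, 15.4 and 16.3% were called lower. Sin3a, the scaffold that MXD proteins bind, was 40.1 ± 2.37% covered in Th2 and 40.4 ± 3.06% in Th1, against 91.2 ± 4.03% in naive cells (limma adjusted p = 2.90e-06 and 2.66e-06). Suds3, a SIN3 complex subunit, was 32.4 ± 3.48% covered in Th2 and 40.7 ± 4.33% in Th1, against 89.0 ± 3.11% in naive cells (adjusted p = 3.06e-06 and 6.04e-06). Ncor1, a nuclear receptor corepressor that overlaps Ttc19, was 44.0 ± 1.96% covered in Th2 and 46.3 ± 5.42% in Th1, against 82.7 ± 3.37% in naive cells. Sin3b was 27.3 ± 2.95% covered in Th2, 35.7 ± 5.37% in Th1 and 60.7 ± 0.109% in naive cells; it was called lower in Th2, and its difference of -24.99 points in Th1 just missed the 25-point minimum. Sap130 was 36.3 ± 0.412% covered in Th2, 34.3 ± 4.71% in Th1 and 60.01 ± 4.27% in naive cells; it was called lower in Th1, and its difference of -23.7 points in Th2 missed the minimum. Sap30, another SIN3 subunit, went the other way, at 99.9 ± 0.127% in Th2, 80.2 ± 13.6% in Th1 and 58.4 ± 5.14% in naive cells. It was called higher in Th2, and its difference of 21.8 points in Th1 missed the minimum.

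Among genes known from other work as MYC targets, more were called higher than lower in the cultured cells. Of 36 tested, 6 were called higher and none lower in Th2 against naive cells. At an unadjusted p under 0.05 in limma, 18 were higher and 2 lower there, and 22 were higher and 5 lower in Th1 against naive cells. The share of all tested genes at that threshold is not given here. In Th1 against naive cells 6 were called higher and 1 lower. Of all tested genes, 4.26 and 4.38% were called higher in these comparisons, and 15.4 and 16.3% lower. The median difference was 5.22 points in Th2 and 6.53 points in Th1 against naive cells, beside -5.50 and -5.54 points over all tested genes. Hk2, the hexokinase of glycolysis that MYC induces, was 86.2 ± 0.426% covered in Th2 and 92.0 ± 3.28% in Th1, against 3.85 ± 1.70% in naive cells (limma adjusted p = 5.54e-08 and 3.84e-08). Odc1, the ornithine decarboxylase of polyamine synthesis, was 79.7 ± 11.1% covered in Th2 and 97.8 ± 3.78% in Th1, against 52.5 ± 2.65% in naive cells. Shmt2, a mitochondrial serine hydroxymethyltransferase that overlaps Ndufa4l2, and Hspe1, a mitochondrial chaperonin that overlaps Hspd1, were called higher in both. Cdkn1a, a cell cycle inhibitor that MYC represses, was 98.3 ± 1.82% covered in Th2 and 99.7 ± 0.146% in Th1 lists and 0% covered in every naive list. Gadd45a, also repressed by MYC, was 59.4 ± 7.64% covered in Th2, 15.3 ± 17.9% in Th1 and 78.5 ± 5.81% in naive cells, lower in Th1 than in naive cells (adjusted p = 0.000449) and higher in Th2 than in Th1 cells (adjusted p = 0.0132). The list was chosen with earlier results of these data known, so its shares beside all tested genes only describe it. It mixes genes that MYC induces with genes that it represses. With libraries centred, 11 of its genes were called in Th1 against naive cells, against 7 without centring, and the Gadd45a call in Th2 against Th1 cells ended with a -log10 q of at least 5 and with 2 kb added at both gene ends.

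Among 21 tested genes for MYC cofactors and for MYC protein stability, 1 was called, lower, in each comparison with naive cells. Of all tested genes, 15.4 and 16.3% were called lower there. This list, too, was chosen with earlier results of these data known. At an unadjusted p under 0.05 in limma, 12 and 10 of the 21 were lower. The share of all tested genes at that threshold is not given here. The median differences of the list were -6.29 and -4.45 points, near the -5.50 and -5.54 points over all tested genes. The gene called was Kat2a, an acetyltransferase that MYC recruits, at 70.7 ± 18.4% in Th2 and 68.6 ± 5.49% in Th1, against 100% in every naive list (limma adjusted p = 0.016 and 0.0117). Both calls ended with libraries centred, with 2 kb added at both gene ends and with peaks up to 1 kb apart joined, and the Th2 call also without the first Th2 library. Over the alternatives, 0 to 2 genes of this list were called in either comparison.

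For each tested network gene, the gene with the most similar percent covered over the 9 libraries was found. The closest to Mxd1 by root-mean-square difference was Anxa6, at 1.75 points, with means of 54.0% in Th2, 90.8% in Th1 and 97.6% in naive cells. Closest to Mxi1 were Adprm and Slc2a1, the glucose transporter gene, both at 1.56 points. Closest to Mxd4 was Hadh, at 4.59 points, and closest to Mycn was Fgl2, at 9.94 points. For Mnt it was Shoc2, at 1.09 points, for Max it was Klhl11, at 0.205 points, and for Mlx it was Atp6v0e, at 4.74 points.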

How the data were processed

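H3K79me2 ChIP-seq broad peak lists were deposited for 9 libraries (Th2, Th1 and naive CD4+ T cells, 3 each). The 9 inputs carried no list and were not analysed here. The submitters' processing notes name MACS2, Bowtie2, SAMtools and Picard and the build mm10; settings and the use of inputs are not given in the sources used here. The authors deposited for each peak its ends, a score, a fold (the ratio of signal to the background of the peak caller), and a p and a q value as −log10; peaks were called per library. These values rank or filter peaks within a list. Read depth is unknown, so no counting interval was set, and a deeper library would cover more.

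Peaks were merged per library, and the percent covered of 21631 protein-coding genes (RefSeq, GRCm38.p6), of the 10 kb beside each gene end and, added later, of 10-kb tiles was compared with limma 3.58.1 (lmFit, eBayes with trend; all 9 libraries in 1 fit) in R 4.3.3. Features without spread were left out. Calls needed a Benjamini-Hochberg adjusted p under 0.05 and 25 points. The eBayes step borrows variance from other features, so that features without spread within groups owe their p to it. The fits were tested on simulated data. Strand and promoters came from the RefSeq promoter table, which held 8 of the 9 genes; Myc is described by coordinate order. All 9 network genes and 4 further ones were named; of other lists, at most 6 called genes with the largest difference. The network genes and lists were chosen with earlier results of these data known. No 2 lists shared more than 1 identical peak. Alternatives were a −log10 q of at least 5, matched covered length (216.963 Mb), joining peaks 1 kb apart, 2 kb added to gene ends, centring, an arcsine scale, no trend, no filter, a replicate block and each library left out.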

Additional observations from a re-analysis of the deposited data

How the results depend on the processing

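Counts of all genes called stayed within 1.5 times under every alternative run, and leaving out each library in turn gave 2183 to 2351 genes in Th2 against naive, 2327 to 2559 in Th1 against naive and 398 to 424 in Th2 against Th1 cells. Flanks called ranged over 3559 to 3744, 3849 to 4087 and 607 to 797 when libraries were left out, and with a −log10 q of at least 5 the count for Th2 against Th1 cells was 441, against 769. Tiles called around Myc ranged over 28 to 43, 26 to 30 and 8 to 15 when libraries were left out, and a −log10 q of at least 5 gave 13, 13 and 3. Percent covered kept its direction for the network genes apart from these 11 differences, none of them called. Centring turned Max (7.16 points in Th2 and 7.85 in Th1 against naive cells), Mnt (5.32 and 6.65), Mlx in Th1 against naive (0.728) and Mxd1 in Th1 against naive cells (4.05). Mxd1 in Th1 against naive cells also turned with a −log10 q of at least 5 (0.300) and with matched covered length (1.79), and Mnt in Th1 against naive cells with 2 kb added (0.953). Mlx in Th2 against Th1 cells turned with a −log10 q of at least 5 (4.31) and with joined peaks (6.25). The cause was not tested.

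The Mycn call in Th1 against naive cells was lost under 13 alternatives (adjusted p of 0.0529 to 0.31), and at a −log10 q of at least 5 Mycn had no peak and no value. With peaks up to 1 kb apart joined, the mean reach was 0.451 kb upstream of Max in Th1 (0 without joining), 1.07 kb in Th2 and 20.4 kb in naive cells upstream of Mxd4 (0 and 13.6), 11.8 kb downstream of Mxi1 in Th1 (0.34) and 1.79 kb downstream of Mnt in Th2 cells (0.75). Upstream of Mxi1 in naive cells it was 0 with a −log10 q of at least 5 and with matched covered length, against 0.388 kb. Without centring and with the 25-point minimum, genes near full coverage cannot be called higher.

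Same-numbered libraries of different groups correlated in their deviations at -0.0745 to 0.00147 over gene bodies, -0.110 to 0.0171 over flanks and -0.109 to 0.00667 over tiles. No same-numbered pair had a positive correlation of 0.1 or more, so the numbers were not taken to pair libraries. With a replicate block, 2261, 2383 and 393 genes were called in Th2 against naive, Th1 against naive and Th2 against Th1 cells.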
